A study of Mus musculus with 4 samples.

Results

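The comparison described here is the shift in RNA labelled as whole eye between 3 h and 24 h after light exposure in mice that lack both Abca4 and Rdh8 (genotype Abca4-/-Rdh8-/-, 6 weeks old). Abca4 is the photoreceptor flippase that moves retinaldehyde out of disc membranes, and Rdh8 is a photoreceptor retinol dehydrogenase. All groups carry the same double deletion, and no wild-type eyes were analysed here. The 3 h sample was set against the 24 h sample, and the unexposed control and the 7-day sample of the same genotype and age served only to place the values. Each label names eyes of 3 mice, but the deposited table holds 1 FPKM value (fragments per kilobase of transcript, scaled to the mapped fragments of the library) per gene and condition. Without replicates there is no test and no p-value, and every difference below has no replicate check. Where 4 values follow a gene they stand for control, 3 h, 24 h and 7 days in that order, and where 2 values follow they stand for 3 h and then 24 h. The change is log2(FPKM + 1) at 24 h minus 3 h, which understates the change of low genes, and folds printed with a gene are plain FPKM ratios. Genes were taken when their mean FPKM over the 4 samples was at least 1, after 723 small RNA genes (Snora, Snord, Scarna, Mir and Rnu) were set aside. That left 14075 of 22558 listed genes. No source used here gives the light dose, the length of exposure or the clock time of collection, so hours after light and time of day cannot be told apart.

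Bright light bleaches visual pigment and releases all-trans-retinal, which Abca4 and Rdh8 normally help to clear. Stressed photoreceptors signal to Müller glia, the radial glia that span the retina, and these respond by gliosis: they take up intermediate filament, acute phase and cytokine-response programmes. Leukaemia inhibitory factor (Lif) and its relatives signal through the shared receptor gp130 and the transcription factor Stat3 in this response. Glucocorticoids, in turn, act through a nuclear receptor and induce a fast set of target genes in most tissues.

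The tissue label says whole eye, whereas the extraction protocol speaks of retinas. Lens transcripts were abundant: the 8 gamma crystallins, the structural proteins of lens fibres, summed to 52721 FPKM at 3 h and 64741 FPKM at 24 h. Retinal transcripts were present in both, with the rod transducin gene Gnat1 at 2312 FPKM at 3 h and 1581 FPKM at 24 h. Skeletal muscle genes were also present in both, so the RNA was not of retina alone. The Y-linked gene Ddx3y was listed at 0 at 3 h and at 0.00528 FPKM at 24 h, while Xist was at 53.8 FPKM in both, so the compared samples hardly differed in these sex-linked transcripts. At 7 days Ddx3y was at 6.59 FPKM and Xist at 37.1 FPKM, so the 7-day sample did differ in them. The deleted genes differed little between the times: Abca4 was at 40.6 FPKM at 3 h and 34.3 FPKM at 24 h (56.3 in the control and 37.4 at 7 days), and Rdh8 at 14.2 and 11.9 FPKM (10.5 and 11.0). Each value is for the gene as a whole and not for its deleted part, so it checks no label.

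Between 3 h and 24 h, 46 genes were higher at 24 h by at least 1 log2 unit (0.327% of genes tested) and 33 were lower (0.234%). The 46 held genes of reactive glia and of gp130 signalling, and the 33 held genes induced by glucocorticoids and genes of resting Müller glia, cones and muscle. The resting Müller glia, cone and glucocorticoid-induced lists also had 1 member each among the 46 (Crym, Gnb3 and Lcn2). Just inside the threshold were Lce3a (1.003), Bst1 (1.004) and Nt5e (-1.003), and just outside it Ndp (0.99), Cnnm4 (0.99) and Fam107a (-0.99). Most genes differed little: among 10393 genes with a mean of at least 5 FPKM, 76.9% lay within 0.2 log2 units of 0 and 95.7% within 0.5. The median change over all genes tested was -0.01, and 47.4% of them lay above 0. The gene lists below are read against those background values, and none of them was tested as a set. Some genes stand in more than 1 list.

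**Figure D1:**
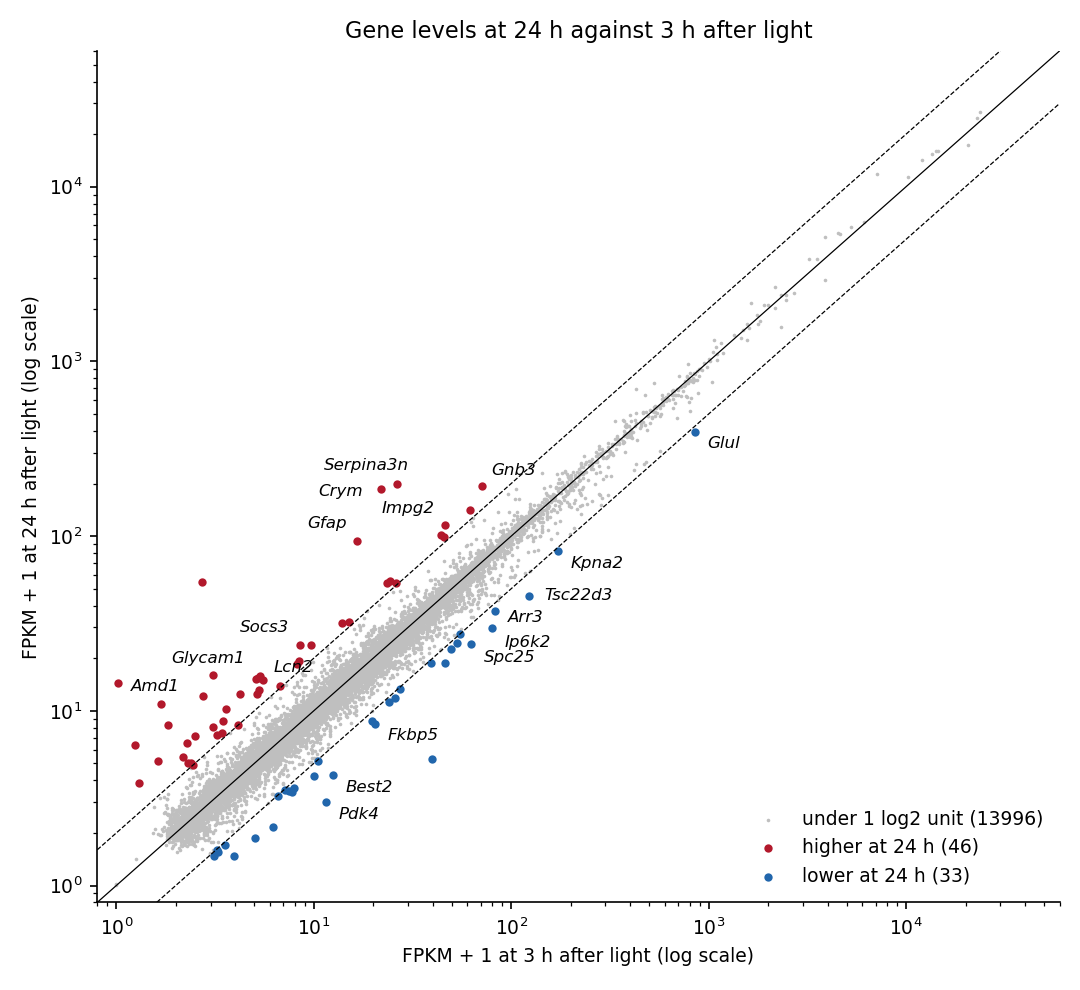
FPKM + 1 at 3 h (x axis) against 24 h (y axis), both on log scales, for 14075 genes; the solid line marks equal levels and the dashed lines a difference of 1 log2 unit. The 46 genes higher at 24 h (red) and the 33 lower at 24 h (blue) lie outside the dashed lines, while the rest (grey) lie close to the diagonal.

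Where the control lay differed between the 2 directions. For 40 of the 46 higher genes the control value was nearer the 3 h value than the 24 h value, against 50.1% of all genes tested, so it was the 24 h value that stood apart. The 7-day value was also nearer the 3 h value for 40 of the 46, against 42.7% of all genes. The 6 genes whose control lay nearer 24 h were Amd1, Serpine3, Kdr, Defb11, Npy and Chst5, in each of which the 3 h value was the lowest of the series. For Amd1 and Serpine3 the 7-day value was low too, nearer 3 h than 24 h. Amd1 is uncertain because of its copy Amd2, as given below. For the 33 lower genes the control divided evenly, nearer 3 h for 17 and nearer 24 h for 16. The 16, among them Tsc22d3, Fkbp5, Fmo1 and Ip6k2, were nearer the unexposed level at 24 h than at 3 h. The 17, among them Glul, Spc25, Opn1mw and Ppef2, were nearer it at 3 h. The 7-day value was nearer 24 h for 26 of the 33.

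Promoters of the called genes were searched for 4 motifs, among them those of STAT factors, which act in gp130 signalling, and of Crx, a homeobox factor of photoreceptors. No motif of the glucocorticoid receptor was searched. RefSeq promoter windows (GRCm38.p6, from 250 bases before to 50 after a start) were at hand for 37 of the 46 higher genes, 22 of the 33 lower genes and 9950 of all genes tested. The STAT motif TTCNNNGAA, searched on both strands, was in 5 of the 37 (13.5%) and in 2 of the 22 (9.09%), against 8.15% of all. The AP-1 motif TGANTCA was in 5 of the 37 (13.5%) and in none of the 22, against 6.27%. The E-box CACGTG was in 3 of the 37 (8.11%) and 1 of the 22 (4.55%), against 11.6%. The Crx-type motif TAATCC was in none of the 37 and in 5 of the 22 (22.7%), against 7.17%. Those 5 were Gsc2, Lmod2, Myog, Pla2r1 and Ppef2, of which only Ppef2, a photoreceptor protein phosphatase, is known as a photoreceptor gene and 2 (Lmod2 and Myog) are muscle genes. Gsc2 was at 1.06, 2.22, 0.595 and 0.946 FPKM. Its mean was 1.21 FPKM, so it passed the filter on low values only through its 3 h value. Each motif was counted on its own, overlaps included, and a match describes letters only.
Stretches of 60 bases before the start are shown for Socs3, the feedback inhibitor of gp130 signalling, and for Ppef2, as 1 higher and 1 lower gene that hold a STAT and a Crx-type motif. The capitals mark the motif, and the stretches run 5′ to 3′ on the gene's strand, at chr11:117969487-117969546 (minus strand) and chr5:92256370-92256429 (minus strand) of GRCm38.p6, which is not the mm9 build of the deposited values.
Socs3: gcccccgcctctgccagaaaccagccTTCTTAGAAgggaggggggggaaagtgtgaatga
Ppef2: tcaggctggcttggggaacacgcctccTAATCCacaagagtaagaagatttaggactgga

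Among gp130 cytokines Lif, known to start the glial response, was lower in value at 24 h, and Cntf was higher. Lif was at 2.84 FPKM at 3 h and 1.052 FPKM at 24 h, against 0.409 in the control and 0.393 at 7 days, so it was above both ends of the series at both times. Its change of -0.90 did not reach the threshold, and Lif passed the filter on low values only through its 3 h value. Cntf, ciliary neurotrophic factor, went the other way, with 11.0 FPKM at 3 h and 18.3 at 24 h (0.69), and Clcf1, a ligand of the same receptor, was at 1.96 and 2.39 FPKM. Of the 9 ligands on the list, 5 passed the filter on low values, and none of the 5 reached the threshold in either direction.

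Receptors and signal transducers of this pathway held 3 genes higher at 24 h among 14, all 14 of which passed the filter. Osmr, the oncostatin M receptor chain, was at 6.33, 8.69, 22.7 and 8.21 FPKM, a 2.61-fold difference between 3 h and 24 h. Stat3, the main transcription factor of the pathway, was at 20.4, 23.3, 54.2 and 23.9 FPKM, or 2.33-fold. For both Osmr and Stat3 the 24 h sample stood alone, and control, 3 h and 7 days lay close together. The shared receptor chain Il6st was at 31.5 and 47.9 FPKM (0.59), whereas Lifr (21.4 and 17.6 FPKM), Jak1 (24.5 and 24.0) and Jak2 (15.2 and 14.1) differed by at most 0.27 in size. Jak3, a kinase best known from lymphocytes and not on the list, was at 2.09 FPKM at 3 h and 7.04 at 24 h (1.38). It was picked after its values were seen. The list's median was 0.00.

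Of 18 genes that answer to Stat3 or dampen it, 3 were higher at 24 h, none lower, and 12 lay above 0, with a median of 0.24. Over the members with a mean of at least 5 FPKM the median was 0.04. Socs3 was at 4.13, 7.503, 22.8 and 5.12 FPKM, so it was 3.04-fold higher at 24 h than at 3 h. Timp1, an inhibitor of matrix metalloproteinases, was at 2.96, 3.23, 11.5 and 4.91 FPKM (3.57-fold). Bcl3, a nuclear partner of NF-kappaB, was at 1.94, 1.49, 6.13 and 2.87 FPKM. Other responders had already been high at 3 h and differed less. Cebpd, an acute phase transcription factor, was at 26.3 FPKM at 3 h and 31.0 at 24 h, against 4.58 in the control. Tnfrsf12a, the receptor of the cytokine TWEAK, was at 20.7 FPKM at both times, against 7.41 in the control. Junb was at 63.3 and 113.4 FPKM (0.83).

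The reactive glia and acute phase list had 27 of 30 genes past the filter, 6 of them higher at 24 h, none lower, and a median of 0.27 with 19 of 27 above 0. That median is the value of Cryab, a small heat shock protein that is also a lens crystallin (4497 and 5426 FPKM), and without it the median was 0.26 with 18 of 26 above 0. Serpina3n, a secreted serine protease inhibitor of reactive glia, was at 28.5, 25.4, 196.9 and 33.6 FPKM, or 7.76-fold higher at 24 h than at 3 h. Gfap, the glial intermediate filament, was at 18.3, 15.5, 93.0 and 36.8 FPKM (5.99-fold). In both genes the 3 h value lay below the control, so the whole increase fell between 3 h and 24 h. Cp, the iron oxidase ceruloplasmin, was at 42.8 and 100.3 FPKM (1.21), and A2m, the broad protease trap alpha-2-macroglobulin, at 60.7 and 139.4 FPKM (1.19). Lcn2, a siderophore-binding lipocalin, was at 1.76, 4.55, 13.99 and 2.86 FPKM, so it was above the control at 3 h as well. The sixth gene was Osmr. Vim, the other filament of Müller glia, was at 333.2 and 457.5 FPKM (0.46), and Cd44, a hyaluronan receptor, at 23.1 and 37.7 FPKM (0.68). Genes that had not been on the list but are known from astrocytes and Müller glia were also among the 46: Pdpn, podoplanin, was at 44.4 and 97.3 FPKM and Aldh1l1, a folate enzyme of astrocytes, at 7.46 and 18.2 FPKM. These 2 were picked after their values were seen.

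Several secreted signals were among the 46. Edn2, an endothelin known to be made by injured photoreceptors, was at 0.761, 0.688, 10.01 and 6.17 FPKM, and it was one of 6 higher genes whose 7-day value lay nearer 24 h. The other 6 members of the endothelin system (ligands Edn1 and Edn3, receptors Ednra and Ednrb, converting enzymes Ece1 and Ece2) did not reach the threshold. Ccl12, a monocyte-attracting chemokine, was at 2.29, 0.820, 7.29 and 2.09 FPKM, with its lowest value at 3 h. Its relative Ccl2 was at 0.818 and 2.35 FPKM (0.88), and Cxcl10, an interferon-induced chemokine, at 0.740 and 2.197 FPKM (0.88). The chemokine and cytokine list had a median of 0.33 over the 17 of 24 genes that passed the filter, with 14 above 0 and 1 past the threshold. Without the filter on low values the median was 0.23. Btc, the epidermal growth factor family ligand betacellulin, was at 4.35 and 14.8 FPKM (3.41-fold). Of 20 survival factors and receptors that passed, none reached the threshold, and Fgf2 was at 4.75 and 8.27 FPKM (0.69).

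Immune cell genes held few calls. Of 25 genes of microglia and macrophages none reached the threshold, and the median was -0.03. The complement list held 1 higher gene, Cfi, the protease that inactivates C3b and C4b, at 0.398, 0.304, 2.86 and 1.22 FPKM. Its mean was 1.19 FPKM, so Cfi passed the filter on low values only through its 24 h value. Interferon and antigen presentation genes had a median of 0.19 with 19 of 27 above 0. Irf9 and Stat2, partners in the transcription complex that answers interferon, were at 0.87 (15.1 and 28.3 FPKM) and 0.85. The interferon-induced genes Isg15 (41.1 and 32.9 FPKM) and Ifit1 (17.8 and 13.4 FPKM) were among the 8 below 0. Of the 27, 1 passed 1 log2 unit.

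Müller glia genes that mark the resting cell divided. Glul, glutamine synthetase, which converts the transmitter glutamate that these cells take up, was at 769.4, 848.9, 394.9 and 884.0 FPKM, and thus at 0.465 of its 3 h level at 24 h. Spc25, a kinetochore subunit found in Müller glia in mice, was at 72.4, 61.9, 23.3 and 74.4 FPKM. Both were low in the 24 h sample alone. Rlbp1, the retinaldehyde-binding protein, was at 196.3 and 152.4 FPKM (-0.36), and the notch target Hes5 at 5.71 and 3.40 FPKM (-0.61). In the other direction, Crym, a thyroid hormone binding protein, was at 28.8, 20.9, 184.3 and 54.0 FPKM, 8.82-fold higher at 24 h than at 3 h. The glutamate transporter gene Slc1a3 was at 30.9 and 45.4 FPKM (0.54) and clusterin, Clu, at 527.9 and 750.9 FPKM (0.51). Over 25 genes the median was -0.11, with 1 higher and 2 lower. Among 12 genes of thyroid hormone handling Crym was alone past the threshold, and 10 lay below 0, among them Dio2, the enzyme that activates the hormone, at 9.78 and 5.93 FPKM.

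**Figure D2:**
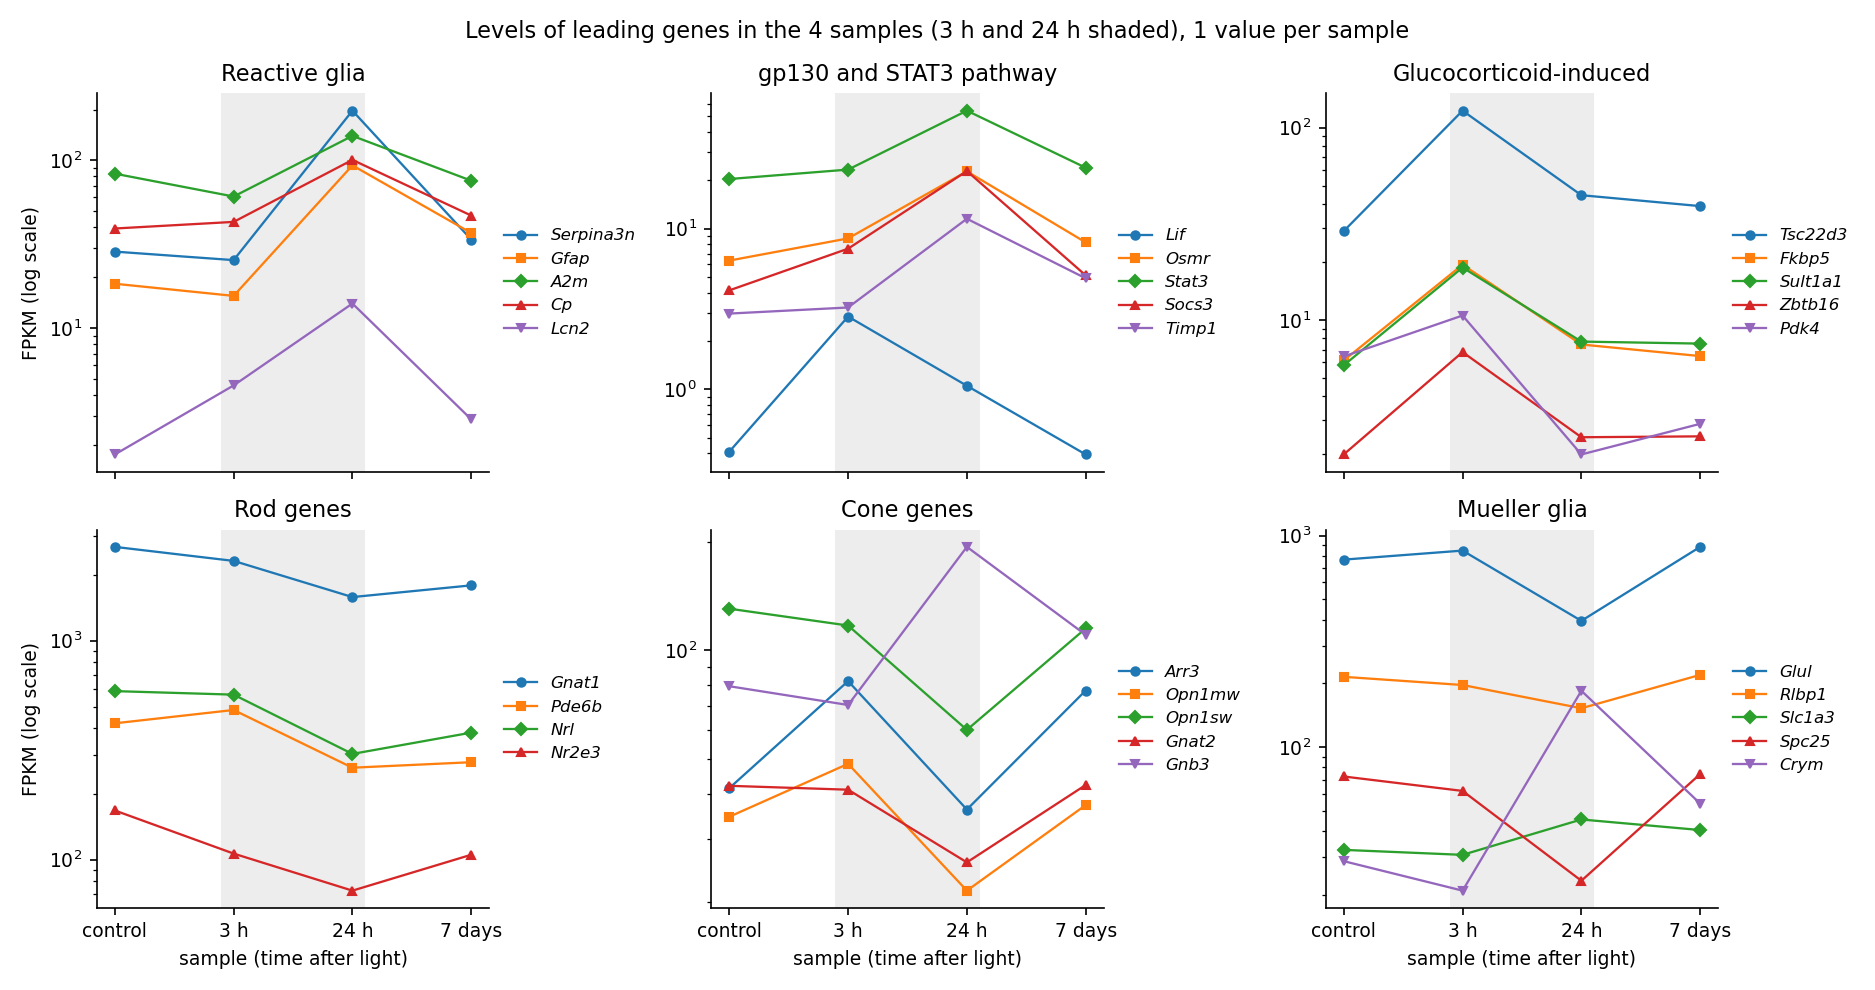
FPKM (log scale) of 4 or 5 genes in each of 6 groups in the 4 samples, 1 value per sample, with 3 h and 24 h shaded; lines join the values of 1 gene. Reactive glia genes, Stat3 and Crym peak at 24 h, glucocorticoid-induced genes and Lif at 3 h, and Glul, Spc25 and 4 of the 5 cone genes have their lowest value at 24 h.

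Glucocorticoid-induced genes held 5 of the 33 lower genes. Of 26 on the list 25 passed the filter, those 5 were lower at 24 h (Sult1a1 stands with the sulfotransferases), 1 (Lcn2) was higher, and 22 of 25 lay below 0, with a median of -0.40. Tsc22d3, an inhibitor of NF-kappaB and AP-1, was at 29.0, 122.5, 44.5 and 39.1 FPKM, so the 3 h level was 2.75-fold that at 24 h. Fkbp5, an immunophilin that feeds back on the receptor, was at 6.15, 19.4, 7.44 and 6.48 FPKM (2.60-fold). Zbtb16, a zinc finger repressor, was at 1.996, 6.80, 2.45 and 2.48 FPKM. In these 3 genes the 3 h sample alone was high. Pdk4, which shuts pyruvate dehydrogenase and is strongly expressed in muscle, was at 6.45, 10.5, 1.99 and 2.88 FPKM, a 5.28-fold difference, and at 24 h it lay below the control as well. Sgk1, a kinase of sodium transport, was at 254.2 and 158.0 FPKM (-0.68), and the metallothionein genes Mt1 (794.1 and 585.8 FPKM) and Mt2 (374.8 and 303.9 FPKM) were at -0.44 and -0.30, still above the control at 24 h.

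In the list of flavin monooxygenases (Fmo), which oxidise drugs and other foreign compounds, and sulfotransferases, 6 of 13 genes passed the filter and 3 of these were lower at 24 h. The median was -0.79 over these 6 and -0.07 without the filter on low values. Sult4a1, a brain sulfotransferase, was at 18.9 and 19.2 FPKM (0.02). Fmo1 was at 6.68, 24.8, 10.9 and 9.76 FPKM and Fmo2 at 1.70, 6.53, 2.48 and 2.17 FPKM. Sult1a1, a phenol sulfotransferase, was at 5.80, 18.7, 7.71 and 7.52 FPKM. Ip6k2, an inositol hexakisphosphate kinase that is in no list, was at 25.6, 78.7, 28.6 and 24.2 FPKM. Fmo1, Fmo2, Sult1a1 and Ip6k2 were each highest at 3 h and nearer the control at 24 h. For adipocyte genes, of which 12 of 14 lay below 0 without a call, the median was -0.32. Cfd, adipsin, was at 18.8 and 9.77 FPKM and Fabp4, a fatty acid carrier, at 37.5 and 20.3 FPKM. Angptl7, which trabecular meshwork and cornea secrete, was at 283.9 and 149.1 FPKM (-0.92), still above its control value of 60.9. It was the lowest of 13 anterior eye secreted genes, whose median was -0.09. Of these 6 lay above 0 and 7 below, with 1 call (Chst5, higher).

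Immediate early genes, which are transcribed within minutes of a stimulus, held no call among 27, and 21 of them lay below 0 (median -0.18). Egr1 was at 30.8 FPKM at 3 h and 15.9 at 24 h (-0.91), Fos at 47.0 and 24.9 (-0.89), and Ctgf, a matricellular target of YAP, at 123.4 and 62.2 (-0.98). Each of the 3 remained above its control value at 24 h. Atf3, a stress-induced member of the ATF family, was one of 6 above 0, with 7.70 and 15.4 FPKM (0.91). Circadian genes held no call. Of clock activators and loop genes 12 of 15 lay below 0 (median -0.13), and of clock outputs 6 of 10 lay above 0 (0.12). Among the outputs Dbp was at 58.2 and 86.2 FPKM (0.56), and in the loop Nr1d1, a repressor of Arntl, was at 32.6 and 47.5 FPKM (0.53) while Arntl itself was at 26.0 and 18.3 FPKM (-0.49). Per1 and Per2, which glucocorticoids and light also act on, were at 14.6 and 11.0 FPKM and at 7.49 and 5.74 FPKM.

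Rod photoreceptor genes were lower in value at 24 h throughout, though none reached the threshold. All 20 activation and recovery genes that passed the filter were below their 3 h level, at 0.545 to 0.924 of it, with a median change of -0.44. Of these 20, 19 were below the control at 24 h and 20 at 7 days, but only 10 at 3 h. The transducin gene Gnat1 was at 2679, 2312, 1581 and 1787 FPKM, and the phosphodiesterase subunit Pde6b at 419.4, 482.5, 263.0 and 278.7 FPKM. Thus Pde6b was above the control at 3 h, while Gnat1 was already below it. Among recovery genes, the calcium sensor Guca1a was at 426.4 and 257.3 FPKM (-0.73), Rgs9bp, the anchor of the GTPase-accelerating complex, at 97.6 and 57.3 FPKM (-0.76), arrestin (Sag) at 1558 and 1330 FPKM (-0.23) and recoverin (Rcvrn) at 367.0 and 339.2 FPKM (-0.11). In bulk RNA fewer rods and less RNA per rod cannot be told apart.

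Genes of other tissues differed between the same samples. All 31 skeletal muscle genes were lower in value at 24 h, with a median of -0.59 and none past the threshold, and their summed level was 3745 FPKM at 3 h and 2331 FPKM at 24 h (0.622), against 3528 in the control and 3068 at 7 days. Further striated muscle genes were among the 33 lower genes: Lmod2, Abra, Xirp1, Myog and Kbtbd5, for example Abra, an actin-binding protein of striated muscle, at 6.92 and 2.62 FPKM. These 5 were picked after their values were seen. Xirp1, with a mean of 1.29 FPKM, passed the filter on low values only through its 3 h value. Lens lists went up in value, with medians of 0.17, 0.24 and 0.12 for alpha and beta crystallins, gamma crystallins and lens fibre genes, and took 21.0% of all FPKM at 3 h and 25.1% at 24 h. Whether the muscle and lens differences reflect tissue makeup, and what part that would have in the rod values, was not tested. For other retinal neurons the medians were -0.03 for 20 bipolar cell genes and 0.02 for 23 genes of amacrine, horizontal and ganglion cells, with none past the threshold in either.

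Photoreceptor transcription factors had values on both sides of 0. Nrl, which commits cells to the rod fate, was at 588.3, 566.9, 304.1 and 380.2 FPKM (-0.90 between 3 h and 24 h), close to the control at 3 h and below it at 24 h. Its target Nr2e3 was at 167.8, 106.7, 72.3 and 105.3 FPKM (-0.56) and was already low at 3 h. Crx was at 236.3 and 163.8 FPKM (-0.53) and Esrrb, an orphan nuclear receptor of rods, at 59.3 and 41.0 FPKM (-0.52). Neurod1, a basic helix-loop-helix factor, was higher in value with 103.7 and 162.0 FPKM (0.64), as was Samd7, a Polycomb-associated repressor, with 17.9 and 24.8 FPKM (0.45). Otx2 was nearest to 0, with 52.8 and 52.6 FPKM. Of 13 factors 10 lay below 0 and none reached the threshold.

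Outer segment genes followed the rods with a few exceptions. Of 18 disc, matrix and chaperone genes 13 lay below 0, with a median of -0.30, and the tetraspanin Prph2 was at 1034 and 757.8 FPKM (-0.45). Impg2, a proteoglycan of the matrix between photoreceptors, was at 46.5, 45.0, 114.7 and 35.7 FPKM, 2.55-fold higher at 24 h than at 3 h and the only one of the 18 past the threshold. Its paralog Impg1 was at 29.5 and 33.7 FPKM, a difference of 0.19. Aipl1, the chaperone of phosphodiesterase, was at 231.5 and 288.2 FPKM (0.32) and Rbp3, the retinoid carrier of that matrix, at 373.7 and 400.1 FPKM (0.10).

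Cone genes held calls in both directions among 14 genes, with a median of -0.47. Arr3, cone arrestin, was at 41.5, 82.1, 36.2 and 77.3 FPKM, so it alternated rather than moved one way. The middle-wavelength opsin Opn1mw was at 34.6, 48.4, 21.6 and 37.2 FPKM. The short-wavelength opsin Opn1sw was at 130.3, 117.1, 60.2 and 114.9 FPKM (-0.95), just under the threshold. All 3 had their lowest value at 24 h, and at 7 days Arr3 and Opn1mw were above the control and Opn1sw below it. Gnb3, the transducin beta subunit of cones and ON bipolar cells, was at 79.5, 70.5, 193.3 and 110.3 FPKM, 2.74-fold higher at 24 h than at 3 h. Ppef2 was at 35.2, 51.8, 23.5 and 24.9 FPKM. Visual cycle genes had no call among 16, with 14 below 0: Rpe65, the isomerase of the pigment epithelium, was at 130.1 and 80.8 FPKM (-0.68), and Rdh12, a retinol dehydrogenase of photoreceptors, at 106.3 and 66.5 FPKM (-0.67).

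Some further genes were low at 3 h and nearer the control at 24 h. Npy, neuropeptide Y, was at 56.4, 25.1, 52.7 and 61.1 FPKM. Kdr, the main receptor of vascular endothelial growth factor, was at 21.7, 12.9, 31.0 and 29.0 FPKM, and it was the only one of 19 endothelial and pericyte genes past the threshold. Chst5, a sulfotransferase of keratan sulfate in the cornea, was at 12.7, 5.73, 12.8 and 14.5 FPKM. By contrast Npvf, another retinal neuropeptide gene, was at 29.8, 10.2, 8.06 and 26.9 FPKM, low at both times. The fibrillar collagen and elastic fibre list had a median of 0.04, with none of 29 past the threshold. Best2, a chloride channel of the ciliary body, was at 6.01, 11.5, 3.27 and 7.51 FPKM, 3.53-fold higher at 3 h than at 24 h.

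The remaining genes named by the rule have no list in common. Amd1, an enzyme of polyamine synthesis, was at 9.12, 0.0225, 13.4 and 1.58 FPKM, but Amd2, a copy nearly identical in sequence, read 56.9, 69.5, 51.3 and 59.3 FPKM. Their sum was 66.0, 69.5, 64.7 and 60.9 FPKM, so the difference disappears when the copies are added, and Amd1 is uncertain. Glycam1, a mucin-like ligand of L-selectin, was at 2.17, 2.09, 14.99 and 4.07 FPKM, and the milk protein gene Lalba, chosen after its values were seen, at 0.301, 0.247, 5.38 and 3.38 FPKM. Sec22c, a vesicle trafficking protein, was at 4.12 and 14.3 FPKM, Klhl29, a kelch-like protein, at 4.24 and 14.4 FPKM, and Lrrc2, a leucine-rich repeat protein, at 4.25 and 12.2 FPKM. Among the lower genes Ccdc24 was at 45.2 and 17.7 FPKM, Pla2r1, a phospholipase receptor, at 22.9 and 10.3 FPKM, and Kpna2, a nuclear import carrier, at 171.9 and 80.8 FPKM.

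Lists for general stress and housekeeping held no call, though several lay mostly on one side of 0. Heat shock genes had 16 of 21 below 0 (median -0.08), and the integrated stress response 14 of 18 (-0.15). Endoplasmic reticulum chaperones, which fold secreted proteins, had 15 of 18 above 0 (0.08). Nrf2 targets and antioxidants had 13 of 24 above 0 (0.02), and cell death and p53 genes 14 of 25 (0.03). Respiratory chain subunits had 22 of 27 below 0 (-0.06), and cytosolic ribosomal proteins 18 of 28 (-0.01). Among surface epithelium genes 19 of 24 lay below 0 without a call (median -0.21), and Krt16, a keratin of stressed epithelium, was at 1.97 and 0.515 FPKM (-0.97). Spc25 aside, none of 22 cell cycle genes was called.

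**Figure D3:**
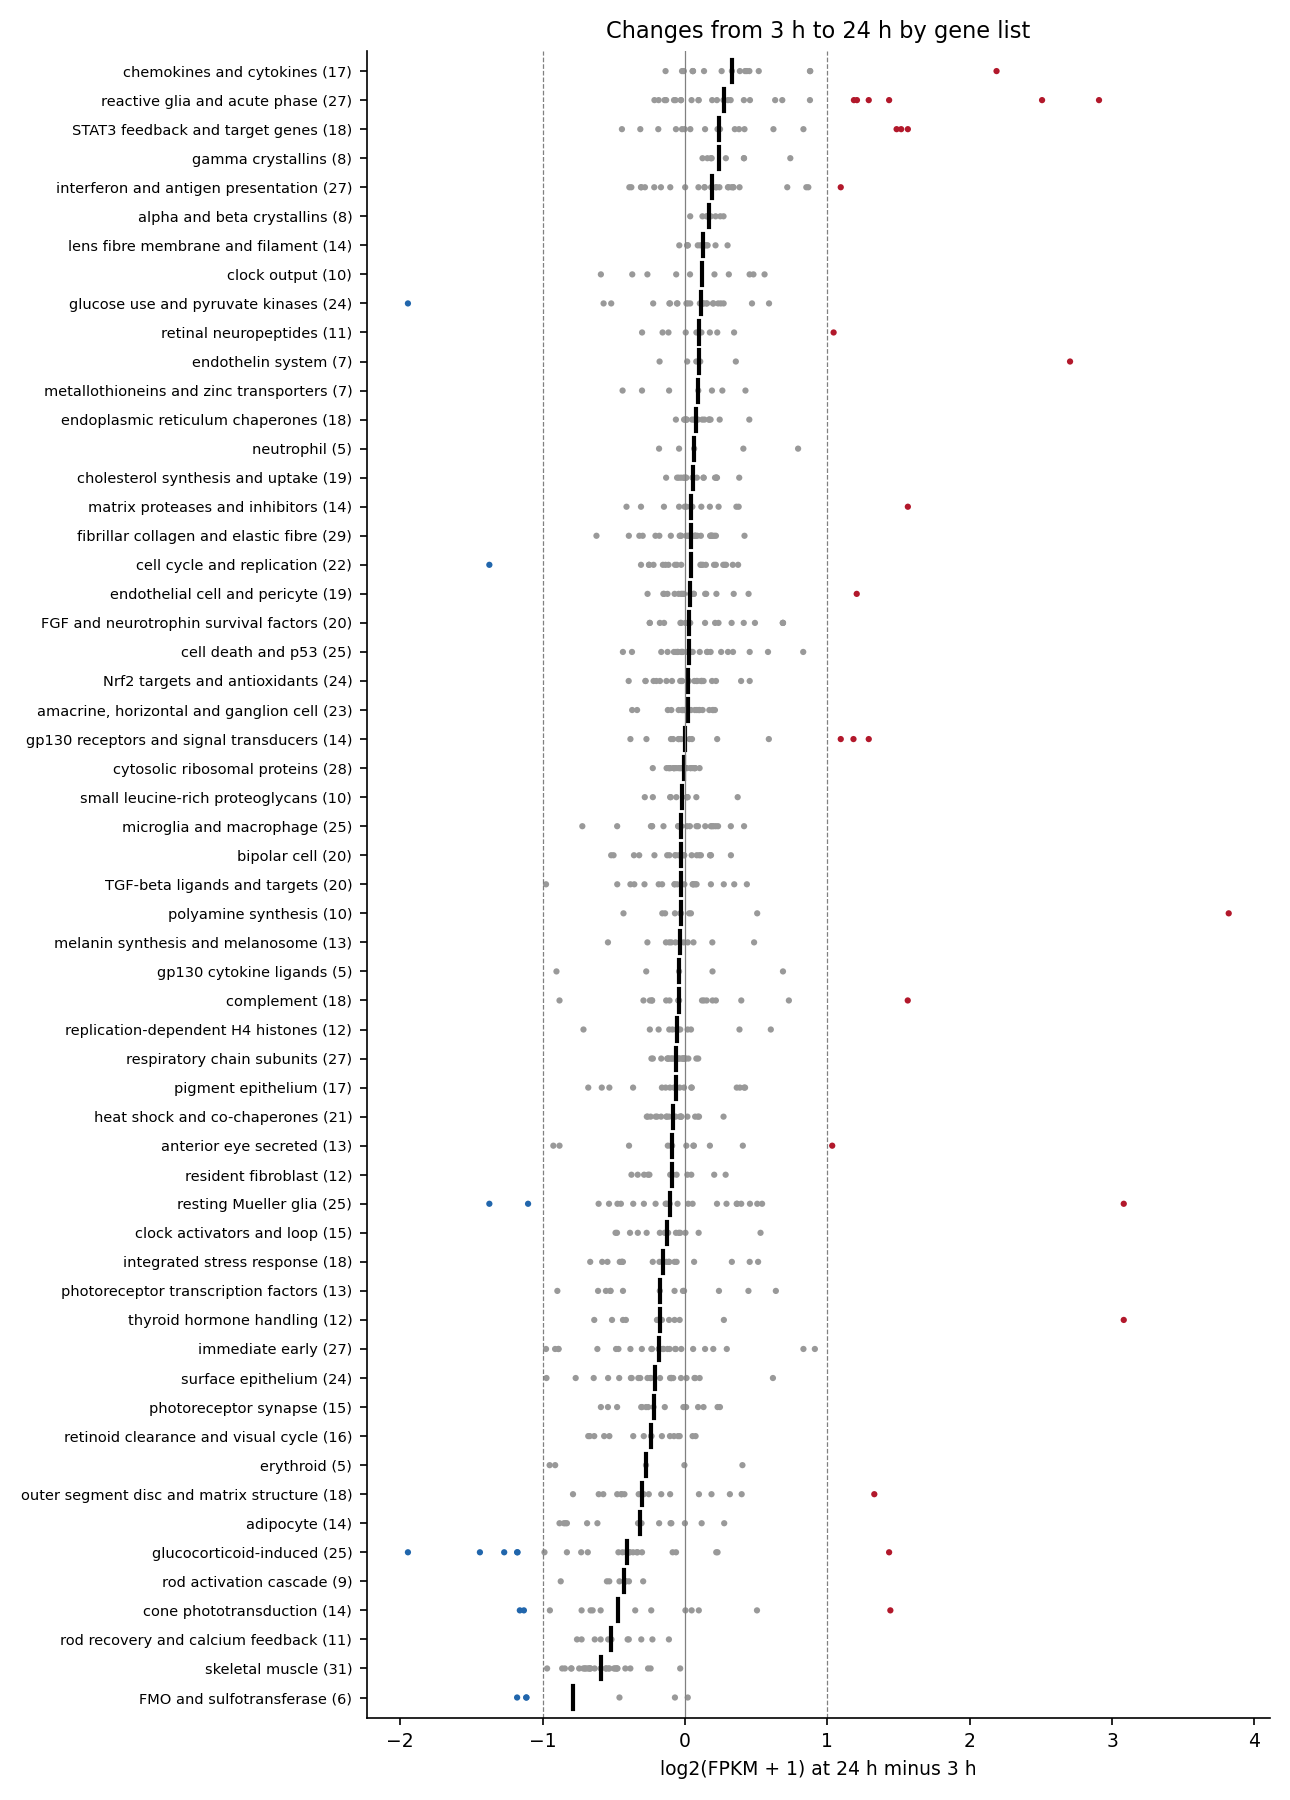
Change in log2(FPKM + 1) from 3 h to 24 h (x axis) of each member that passed the filter, by gene list (number of members in brackets), with black bars at the list medians and dashed lines at 1 log2 unit. Red points (higher) gather in the reactive glia, gp130 and STAT3 lists and blue points (lower) in the glucocorticoid-induced and Fmo lists. The glucocorticoid-induced list also holds 1 red point, and the cone and resting Müller glia lists hold 2 blue points and 1 red point each. Skeletal muscle and rod genes lie to the left of 0 without reaching the dashed line.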

How the data were processed

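RNA labelled as whole eye from 4 conditions was sequenced, and the authors deposited FPKM values, 1 per gene and condition. The tools named are TopHat2, Cuffdiff 2.2.1 and bcl2fastq 1.8.3, and the build is mm9, per the submitters' processing notes. No source used here gives the gene annotation, the library scaling, the use of strand, or whether the 3 mice were pooled or averaged. Values were taken as deposited, with a pseudocount of 1, a minimum mean of 1 FPKM and a threshold of 1 log2 unit (2-fold). Python 3.11.15 with pandas 2.3.3 was used. The calculation was run on simulated data with changes larger than the threshold, in genes with a mean of at least 5 FPKM and with counting noise alone. That run does not cover changes near 2-fold, lower genes or the spread between animals.

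Read counts were not used here. From olfactory receptor genes above 0 in a single sample, 1 fragment was worth about 0.0467 FPKM at 3 h and 0.0350 FPKM at 24 h (14 and 17 genes), which gives a gene of similar length at 1 FPKM a counting error of 21.6% and 18.7%, and at 5 FPKM 9.66% and 8.36%. These errors leave out the spread between animals.

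The 58 gene lists (1055 entries, 1046 found) and the members were chosen with earlier results of these data known. Named genes were the 15 with the largest change in each direction among called genes with a mean of at least 5 FPKM, unnamed gene models passed over, plus list members. The E-box, AP-1, STAT and Crx-type motifs were read from RefSeq promoters, matched by symbol. Gene classes came from RefSeq (GRCm38.p6), where 22323 symbols (99.0%) matched. Some genes are not reported here.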

Additional observations from a re-analysis of the deposited data

Results flagged for a closer look

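Small RNA genes were set aside from every comparison, and their share of all FPKM stood out at 3 h. It was 12.9% at 3 h, against 9.09% in the control, 8.54% at 24 h and 10.5% at 7 days.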

How the results depend on the processing

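No paired analysis was possible because each condition has 1 value. Under 9 alternatives all 30 genes named by the rule kept their direction and stayed past the threshold, which these settings could hardly change. Alternatives that only alter which genes are tested leave the value of a gene as it was. A smaller pseudocount widens a difference, and the rescalings shifted values by at most about 0.03. The named change smallest in size was that of Kpna2 (-1.08). The counts of 46 higher and 33 lower genes became 72 and 69 with a pseudocount of 0.1, 28 and 20 with a mean of at least 5 FPKM, and 73 and 62 with small RNA genes kept. The first adds low genes, and the other settings change which genes were tested. Rescaling by the median ratio gave 49 and 31, and rescaling to the same sum without lens, muscle, erythroid, surface epithelium and small RNA genes gave 52 and 30, with log2 shifts of 0.01 and 0.03. Of 521 list medians under the alternatives, 9 moved by 0.1 or more, in the Fmo and sulfotransferase, STAT3 target, cone, photoreceptor transcription factor, erythroid and metallothionein lists, and under these alternatives no list with a median of at least 0.2 in size changed sign. The counting error of a gene at 1 FPKM was 21.6% at 3 h and 18.7% at 24 h, and it is larger below that level. The glia median without Cryab was chosen after seeing the data.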

Other observations

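The gene models 1700027L20Rik and Gm4792, which the rule for named genes passed over, differed more than most named genes. In control, 3 h, 24 h and 7-day eyes 1700027L20Rik was at 3.44, 1.73, 53.5 and 0.466 FPKM. Gm4792 was at 17.3, 38.6, 4.31 and 3.80 FPKM.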
